A study of Mus musculus with 6 samples.

Results

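Progenitor exhausted CD8 T cells are described here across genes, surface tags and T cell receptors in mouse gliomas sampled on 2 days. Members were selected on their own UMIs, so the genes of that rule are no result here. They were cell barcodes with 5000 or more unique molecular identifiers (UMIs, counted transcripts) on genes and at most 10% of them mitochondrial, with T cell receptor contigs. They carried at least 1 Cd8a or Cd8b1 UMI, no Cd4 UMI, at least 1 Pdcd1 UMI and at least 1 Tcf7 UMI. They had no Havcr2, Gzmc, Gzmf or Mki67 UMI and at most 1 UMI over Klra1, Klra6 and Klra7. In all 432 of 7847 barcodes that passed the depth, mitochondrial and contig filters were members, 338 from day 13 and 94 from day 19.

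The cells were CD3+ infiltrates sorted from intracranial CT2A tumours, an established mouse glioma line, in WT C57BL/6J mice aged 6 to 8 weeks. The design text names 16 mice on day 13, pooled in groups of 4, and 4 mice on day 19. All mice carried the tumour and no other agent is named, and no tumour-free group was used here. Each day was 1 capture with 10x 5' chemistry and gave gene, antibody tag and receptor libraries. The title of the series places the move from progenitor to terminal exhaustion at the centre of the study, so members were set against CD8 T cells with Pdcd1 and Havcr2 and without Tcf7, called terminal cells below (275 on day 13 and 445 on day 19).

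Exhausted CD8 T cells arise under lasting antigen exposure and express several inhibitory receptors. A progenitor subset keeps the transcription factor TCF1, encoded by Tcf7, can self-renew and gives rise to terminal cells that express TIM-3, encoded by Havcr2. The progenitor subset is known from chronic viral infection and tumours as the main pool that proliferates after PD-1 blockade.

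The sources gave no replicate captures, so no comparison below has a test. Intervals are exact 95% Poisson or Clopper-Pearson intervals and cover counting error only. Receptor contigs came in 4 sets per day whose barcodes carry different multiplexing tags. The labels do not tie those sets to mice, so values per set show the spread within a capture and are not replicates. Members numbered 25, 142, 119 and 52 in sets 1 to 4 on day 13 and 14, 34, 25 and 21 on day 19. No member barcode was shared by the 2 days, whereas 28 of the barcodes past the filters were.

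Members were shallower than terminal cells, with a median of 7199.5 against 13984 gene UMIs per cell on day 13 and 7907.5 against 12553 on day 19. Levels are therefore given per 1000000 gene UMIs of the class (CPM). Transcripts of other cells moved with class and day. All 10 macrophage or monocyte markers were detected in members, and their summed level was 1018 CPM on day 13 (620 to 1843 over sets) and 2113 on day 19 (862 to 4203). In terminal cells it was 2137 and 1948 CPM. At least 2 UMIs of myeloid or B cell markers were found in 22.5% of members on day 13 and 38.3% on day 19, and in 78.6% of the 14 members of day 19 set 1. B cell markers reached 77.1 CPM in day 19 members, of which 49 of 67 UMIs lay in 1 barcode. At least 2 TRB chains were read in 44 of 338 members on day 13 and 10 of 94 on day 19, against 11 of 275 and 36 of 445 terminal cells, and no doublet caller was run. Summed markers of natural killer cells stood at 279 CPM in day 13 and 556 in day 19 members, of microglia at 326 and 574, of regulatory T cells at 362 and 368, of gamma delta T cells at 40.9 and 85.2, of helper T cells at 64.0 and 43.7, of glial, vascular or tumour cells at 67.6 and 66.8 and of neutrophils at 3.91 and 9.21. The natural killer sum holds Eomes and the regulatory T sum Ctla4 and Il2ra, which are given below as genes of the CD8 T cells. These 2 sums thus do not measure other cells alone. In terminal cells they were 662 and 1339 CPM, and 429 and 452 CPM. S100a8, S100a9, Ly6g, Retnlg and the red cell globins were at 0. The part of these transcripts in the results was not tested. Ratios without such barcodes are given where they matter.

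The share of members among Pdcd1-positive CD8 T cells was lower on day 19. On day 13 it was 27.6% (25.1 to 30.2, 338 of 1224 cells) and on day 19 it was 10.1% (8.21 to 12.2, 94 of 934 cells). By contig set it was 18.5%, 26.7%, 33.8% and 25.2% on day 13, and 13.1%, 6.92%, 14.5% and 12.8% on day 19. Every day 13 set lay above every day 19 set. Terminal cells went the other way, from 22.5% (20.2 to 24.9) to 47.6% (44.4 to 50.9). With each cell thinned to 5000 UMIs before gating, members made up 27.3% and 9.06%, and terminal cells 15.5% and 30.3%. Fewer members, more of the other Pdcd1-positive cells and different recovery from pooled tumours cannot be told apart, since each day was 1 capture.

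The markers in the label that the gate left free were higher in members than in terminal cells. Slamf6, the receptor Ly108 that marks progenitor cells, stood at 65.1, 106, 98.3 and 135 CPM in the members of day 13 sets 1 to 4, against 17.6, 22.0, 20.6 and 27.0 CPM in terminal cells. On day 19 it stood at 88.6, 148, 89.2 and 71.2 CPM in members against 12.6, 4.62, 2.22 and 1.72 in terminal cells. The classes did not overlap on either day, and the log2 ratio was 2.23 (1.89 to 2.57) on day 13 and 4.64 (4.02 to 5.31) on day 19. After thinning to 5000 UMIs, 34.9% of day 13 members had a Slamf6 UMI, against 8.73% of terminal cells and 6.88% of barcodes with neither CD3 transcripts nor contigs, which gives the level from free or foreign RNA. Id3, an inhibitor of E-protein transcription factors tied to memory and progenitor states, was at 39.1 CPM in day 13 members (34.6 to 50.1 over sets) and 9.26 in terminal cells (4.75 to 11.7). The day 19 levels were 40.3 CPM (33.2 to 48.3) against 4.90 (0 to 6.36). Again the sets did not overlap. An Id3 UMI was found in 12.7% of thinned day 13 members, which is below the 19.1% of barcodes without CD3 and above the 3.27% of terminal cells. On day 19 it was found in 16.0% of members (9.22 to 24.9), 13.7% of barcodes without CD3 (10.2 to 17.8) and 0.899% of terminal cells. The label thus held against terminal cells for both markers. Set against barcodes without CD3, the share of members with a UMI was higher for Slamf6 on both days (36.2% against 7.58% on day 19). For Id3 that share lay below the one in barcodes without CD3 on day 13 and within counting error of it on day 19.

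**Figure D1:**
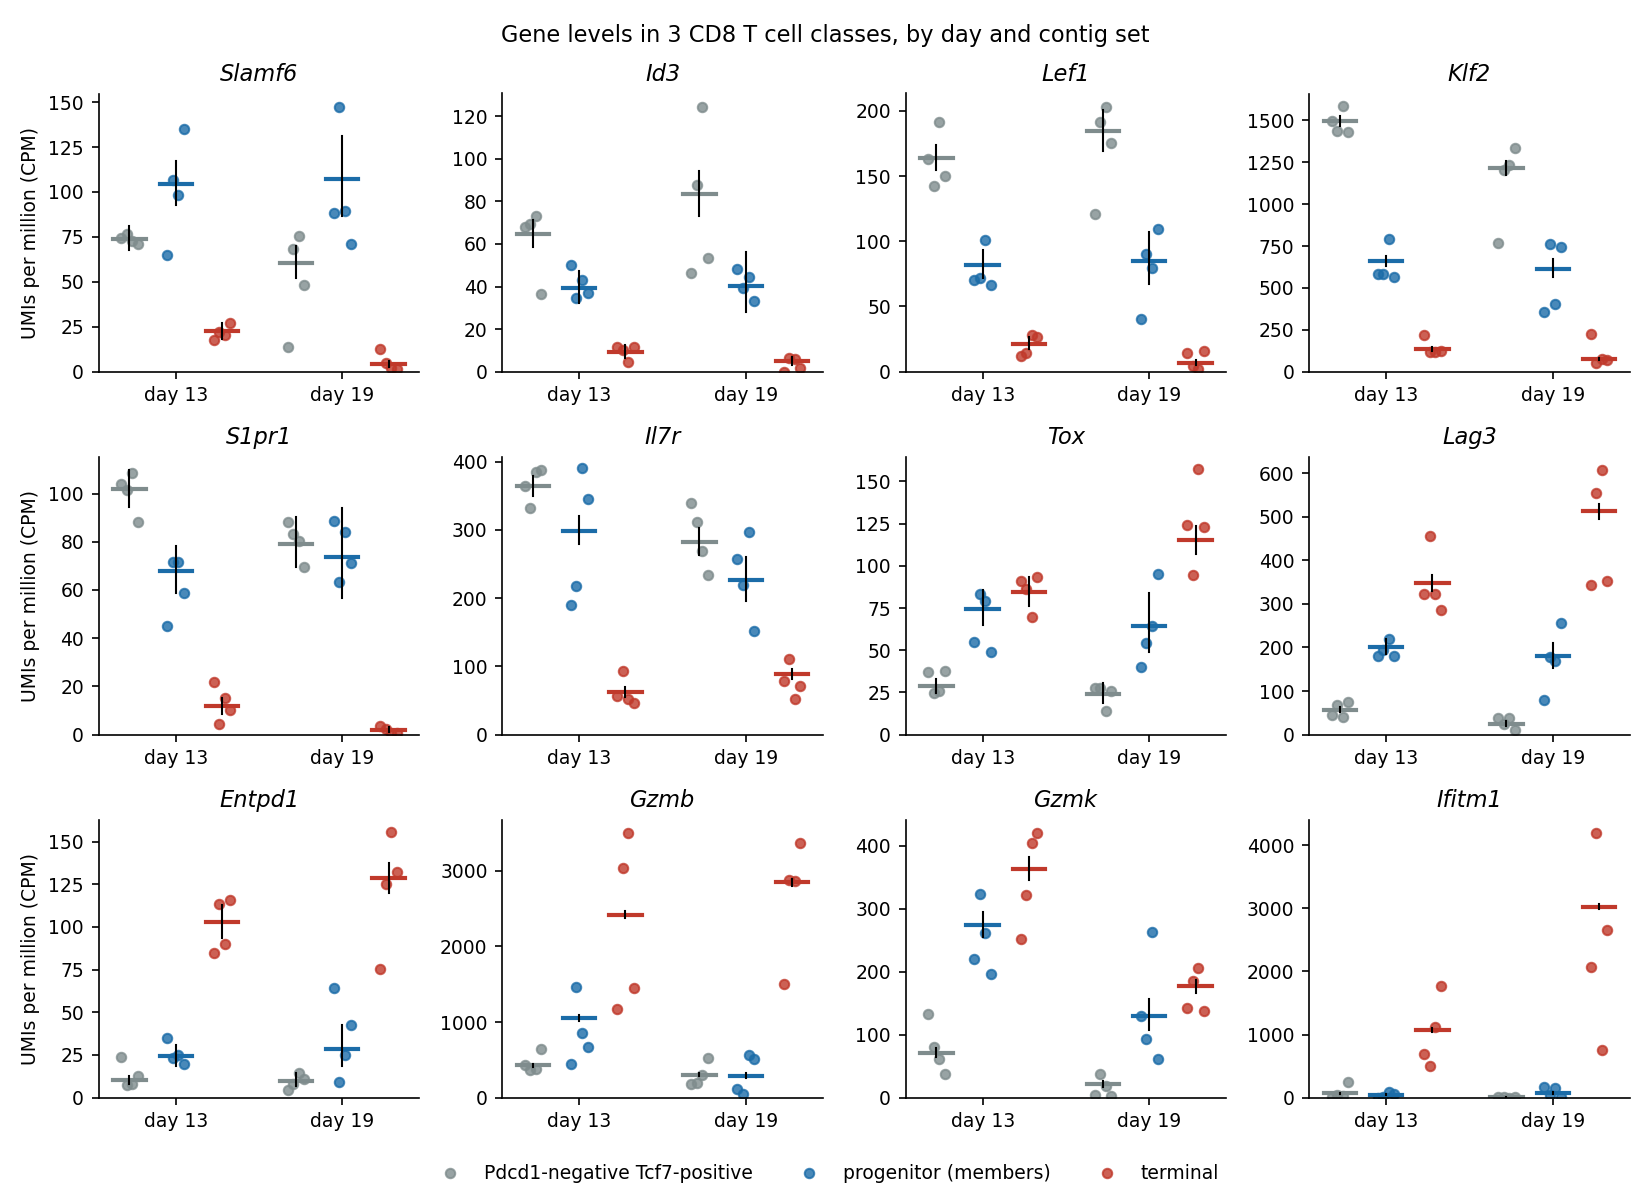
Levels of 12 genes in CPM by day in Pdcd1-negative Tcf7-positive CD8 T cells (grey), members (blue) and terminal cells (red); points are the 4 contig sets, horizontal bars the class as a whole and vertical lines exact 95% Poisson intervals. Slamf6, Lef1, Klf2, S1pr1 and Il7r lie higher in members than in terminal cells, and Lag3, Entpd1, Gzmb and Ifitm1 lie lower.

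Against all terminal cells, 407 of 8553 genes with 50 or more UMIs over the pair of classes were called higher in members on day 13 (4.76%) and 826 lower (9.66%). On day 19 the calls were 430 higher (5.02%) and 614 lower (7.17%) of 8567. A gene was called where its ratio was at least 2-fold and the interval of the ratio excluded equality. Of the 8221 genes measured on both days, 193 were called higher on both, which is 58.1% of the day 13 and 46.3% of the day 19 calls, and 366 were called lower on both. The terminal class was gated without the limits on Klra, Gzmc, Gzmf and Mki67 that members had to meet. Terminal cells under those limits, 152 on each day, left 200 of 7268 genes higher (2.75%) and 361 lower (4.97%) on day 13, and 151 (2.6%) and 264 (4.55%) of 5797 on day 19. The log2 ratios against them follow as ratios under equal limits.

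Genes of stem and memory programmes were higher in members. Of 23 such genes measured on day 13, 16 were called higher and none lower, with a median log2 ratio of 1.91 where the median over all genes was -0.11. On day 19 the count was 15 of 21 with a median of 2.13. Under equal limits 13 of 23 and 13 of 20 were called higher, with medians of 1.25 and 1.502, and on day 19 the chemokine Xcl1 was called lower. The gene list is known biology of progenitor cells and was chosen with earlier results of these data known, so the counts describe the members and are not independent support.

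Lef1, the partner of TCF1 at T cell enhancers, stood at 70.1, 71.8, 101 and 66.2 CPM in day 13 members and 11.7, 14.4, 28.5 and 26.2 in terminal cells. On day 19 the values were 40.3, 90.3, 79.3 and 109 against 14.4, 4.33, 2.22 and 15.5 CPM. No set of members fell into the range of terminal cells, and the log2 ratios were 1.93 (1.58 to 2.29) and 3.66 (3.10 to 4.23). Bach2, a repressor that restrains effector differentiation, had log2 ratios of 1.91 and 3.86, and under equal limits 1.04 and 2.87. Myb, needed for progenitor maintenance, had log2 ratios of 1.31 and 3.27, and Satb1, a chromatin organiser, 2.19 and 2.13. Il7r, the receptor for the survival cytokine IL-7, was at 299 CPM in day 13 members (190 to 390 over sets) and 62.3 in terminal cells (46.3 to 93.8). The day 19 levels were 227 (152 to 297) against 89.3 (51.8 to 112) CPM, again without overlap. Foxo1 was called higher on day 19 only, with log2 ratios of 0.71 (0.45 to 0.97) and 1.57 (1.16 to 1.96), and the difference between days was not tested. The costimulatory receptors Cd28 and Icos were not called on either day. Cxcr5, often used to mark progenitor cells in lymphoid tissue, was at 9.96 CPM in day 13 members and fell under the UMI minimum.

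Several genes for lymphoid homing and tissue exit were higher in members. On day 13, 4 of 9 were called higher and 1 (Ccr9) lower, with a median log2 ratio of 0.86, and on day 19 6 of 8 were called higher and none lower, with a median of 2.47. Without barcodes holding other cells' markers the medians were 2.74 and 3.21. Under equal limits 3 of 8 and 6 of 8 were called higher and none lower. S1pr1, the sphingosine 1-phosphate receptor that guides exit from tissue, stood at 45.1, 71.8, 71.6 and 58.8 CPM in day 13 members and 22.0, 4.22, 15.0 and 10.0 in terminal cells. On day 19 it stood at 88.6, 63.2, 84.2 and 71.2 CPM against 3.601, 2.31, 0.74 and 0.862. Members exceeded terminal cells in every set, with log2 ratios of 2.53 (2.08 to 3.003) and 5.32 (4.42 to 6.35). Klf2, a factor that drives S1pr1, was at 659 CPM (566 to 793) against 137 (119 to 221), then 616 (354 to 762) against 75.5 (53.2 to 223). Ccr7, the lymph node chemokine receptor, was at 415 against 148 CPM on day 13 and 471 against 46.4 on day 19. Its day 13 log2 ratio was 1.49 in all cells, 0.45 (0.30 to 0.60) under equal limits and 3.80 without barcodes that held 2 or more UMIs of other cells' markers. Dendritic cells also express Ccr7, and dendritic markers summed to 2360 CPM in day 13 members (1688 to 3135) and 3530 in terminal cells (2497 to 4504). Itgb7 and Cxcr4 were called higher on day 19 only, with log2 ratios of 1.91 and 1.79. Ccr9 was called lower on day 13, at 6.76 against 19.0 CPM.

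Inhibitory receptors other than the gated Pdcd1 and Havcr2 were split. On day 13, 4 of 13 were called lower and 2 higher in members (median log2 ratio -0.56), and on day 19, 5 of 12 lower and 1 higher (-0.89). Under equal limits 5 of 12 and 7 of 12 were lower and none was higher. Entpd1, the ectoenzyme CD39 of terminal exhaustion, stood at 35.1, 23.4, 24.8 and 19.6 CPM in day 13 members against 84.9, 113, 90.2 and 116 in terminal cells. The day 19 levels were 64.4, 9.03, 24.8 and 42.7 CPM against 75.6, 125, 155 and 132. Members were below terminal cells in every set, with log2 ratios of -2.09 (-2.48 to -1.72) and -2.16 (-2.79 to -1.59). After thinning, an Entpd1 UMI was found in 7.69% of day 13 members, 33.5% of terminal cells and 37.4% of barcodes without CD3. On day 19 the shares were 9.57%, 44.0% and 36.4%, so other cells in the tumour carried Entpd1 too. Lag3 was at 201 CPM in day 13 members (180 to 220) and 347 in terminal cells (285 to 455), and at 181 (80.5 to 256) against 512 (344 to 608) on day 19. It was called lower on day 19 only, at -1.503 (-1.74 to -1.27), and under equal limits on both days, at -1.28 and -1.77. Cd244a, the receptor 2B4, had log2 ratios of -2.91 and -3.07. Tigit and Ctla4 were not called on either day, at log2 ratios of -0.67 and -0.89 and of -0.32 and -0.44, although under equal limits Tigit passed the limit at -1.201 and -1.32. Btla was called higher on day 13, at 13.5 against 5.20 CPM. Cd160 was called higher on day 19, at 110 against 48.1 CPM, and under equal limits its log2 ratio was 0.56 (0.17 to 0.96).

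Transcription factors of terminal exhaustion gave few calls against all terminal cells. On each day 2 of 14 were called lower and 1 higher, close to the shares over all genes (9.66% and 7.17% lower, 4.76% and 5.02% higher), so it is not a result about the list. Tox, the factor that imposes the exhausted chromatin state in progenitor and terminal cells alike, was at 74.7 CPM in day 13 members (49.0 to 83.0) and 84.3 in terminal cells (69.6 to 93.3), with overlapping sets and a log2 ratio of -0.17 (-0.42 to 0.07). On day 19 it was at 64.5 against 115 CPM, a log2 ratio of -0.84 (-1.26 to -0.45). Rbpj, the nuclear effector of Notch, was lower in members on both days, at -1.77 (-2.03 to -1.51) and -2.26 (-2.78 to -1.78). Id2, which opposes the programme that Id3 marks, was at 161 against 289 CPM on day 13 and 177 against 385 on day 19. Eomes was called higher on both days, at 64.7 against 28.5 and 27.6 against 12.9 CPM. Under equal limits 2 of 14 of these factors were called lower on day 13 and 7 of 13 on day 19, none higher.

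Several cytotoxic genes were lower in members. The calls were 5 lower and 1 higher of 17 on day 13 and 9 lower and 2 higher of 17 on day 19. Gzmb, the granzyme of killer cells, stood at 441, 1468, 861 and 674 CPM in day 13 members against 1174, 3044, 3507 and 1451 in terminal cells, so the classes overlapped between sets. By day 19 the values were 121, 54.2, 560 and 508 CPM against 1500, 2877, 2867 and 3373, with no overlap. The log2 ratios were -1.2004 (-1.26 to -1.14) and -3.29 (-3.47 to -3.11). Gzma had ratios of -1.33 and -3.89, and Prf1, the pore-forming perforin, of -2.39 and -3.45. Gzmk, a granzyme of memory-like cells, was not called, at 274 against 363 CPM on day 13 and 130 against 177 on day 19. Gzmm was higher in members on day 13, at 23.8 against 3.61 CPM. The natural killer receptor Klre1 had log2 ratios of -1.48 and -3.06 and Klrc1, which encodes the inhibitory receptor NKG2A, of -0.80 and -1.67.

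Cytokine and homing genes differed gene by gene. The chemokines Ccl3 and Ccl4 were lower in members on both days, Ccl4 at 313 against 1178 CPM and 341 against 1097. Ifng was at 234 against 371 CPM on day 13 and 106 against 357 on day 19, and was called lower on day 19 only. Csf1, which sustains macrophages, was at 8.18 against 12.7 CPM on day 13 and at 9.21 against 79.2 on day 19, a log2 ratio of -3.10 (-4.32 to -2.12). Xcl1, the chemokine for cross-presenting dendritic cells, was called higher on day 13 (178 against 83.6 CPM) and not on day 19 (79.4 against 116). Ccl5 was the most abundant of these, at 8642 against 4381 and 4457 against 2534 CPM. Its log2 ratios of 0.98 and 0.81 came to 0.16 and -0.17 under equal limits. Of 12 genes of tissue residency and tumour homing, 4 were called lower and 1 higher on day 13, and 4 lower and 4 higher on day 19 (Cxcr3, Itgae, Cd69 and Itgb1). The residency genes Itga1 and Zfp683 and the tumour-homing receptor Cxcr6 were lower in members on both days, Cxcr6 with log2 ratios of -1.40 and -1.77. Cd69, which retains T cells in tissue and follows stimulation, was called higher on both, at 1.19 and 1.204. Under equal limits its ratio was 0.93 on day 13, where the call was lost, and 1.10 on day 19. Under these limits 5 of 11 genes of the list were called lower on each day, none was called higher on day 13, and Cd69 and Cxcr3 were on day 19. Zfp683 was no longer called on day 13, at -1.11. Tnfrsf9, the costimulatory receptor 4-1BB induced through the antigen receptor, was lower, at 90.3 against 301 CPM and 94.4 against 562. Of 17 interleukin and other cytokine receptors, 3 were called higher on each day and 1 and 2 lower, with medians of 0.30 and 0.11. The lower calls are near the shares over all genes, and under equal limits 2 of 17 and 1 of 15 were called higher. Il2ra was called lower on day 13 and Il2rb on day 19, and Il6st, the shared chain of the IL-6 family, higher on both (log2 ratios of 1.499 and 1.81).

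Type I interferon response genes were higher in members than in terminal cells on both days. Of 15 genes, 8 were called higher on day 13 and 9 on day 19, none lower, with median log2 ratios of 1.04 and 1.09. Ifit3 stood at 456, 747, 644 and 797 CPM in day 13 members against 224, 277, 208 and 103 in terminal cells. On day 19 the values were 177, 108, 421 and 176 against 52.2, 47.1, 123 and 58.6 CPM. Members were higher in every matched set, with overlap between sets on day 19. Under equal limits 3 and 1 genes were called, with medians of 0.40 and 0.50, less than in the comparison with all terminal cells.

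Cell cycle genes other than the gated Mki67 were lower on day 13 in all 16 cases and on day 19 in 10 of 16. Against terminal cells under equal limits the medians were -0.86 on day 13 and, with the sign turned, 0.65 on day 19. Rrm2, a ribonucleotide reductase subunit, went from -2.35 to 3.15 (1.55 to 5.17) on day 19, and Birc5, or survivin, from -4.45 to 0.98 (-0.63 to 2.59). The direction on day 19 thus depended on the limits that members alone had to meet. Of 16 glycolysis genes 3 were called lower on each day and none higher, with medians of -0.74 and -0.63. The enzyme gene Tpi1 and the lactate exporter Slc16a3 were among them on both days, Slc16a3 with log2 ratios of -2.16 and -1.51, the latter -0.93 and not called without set 4 of day 19. Under equal limits 1 of 16 and 2 of 15 were called lower, and Tpi1 was not called on either day, at -0.83 and -0.86.

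**Figure D2:**
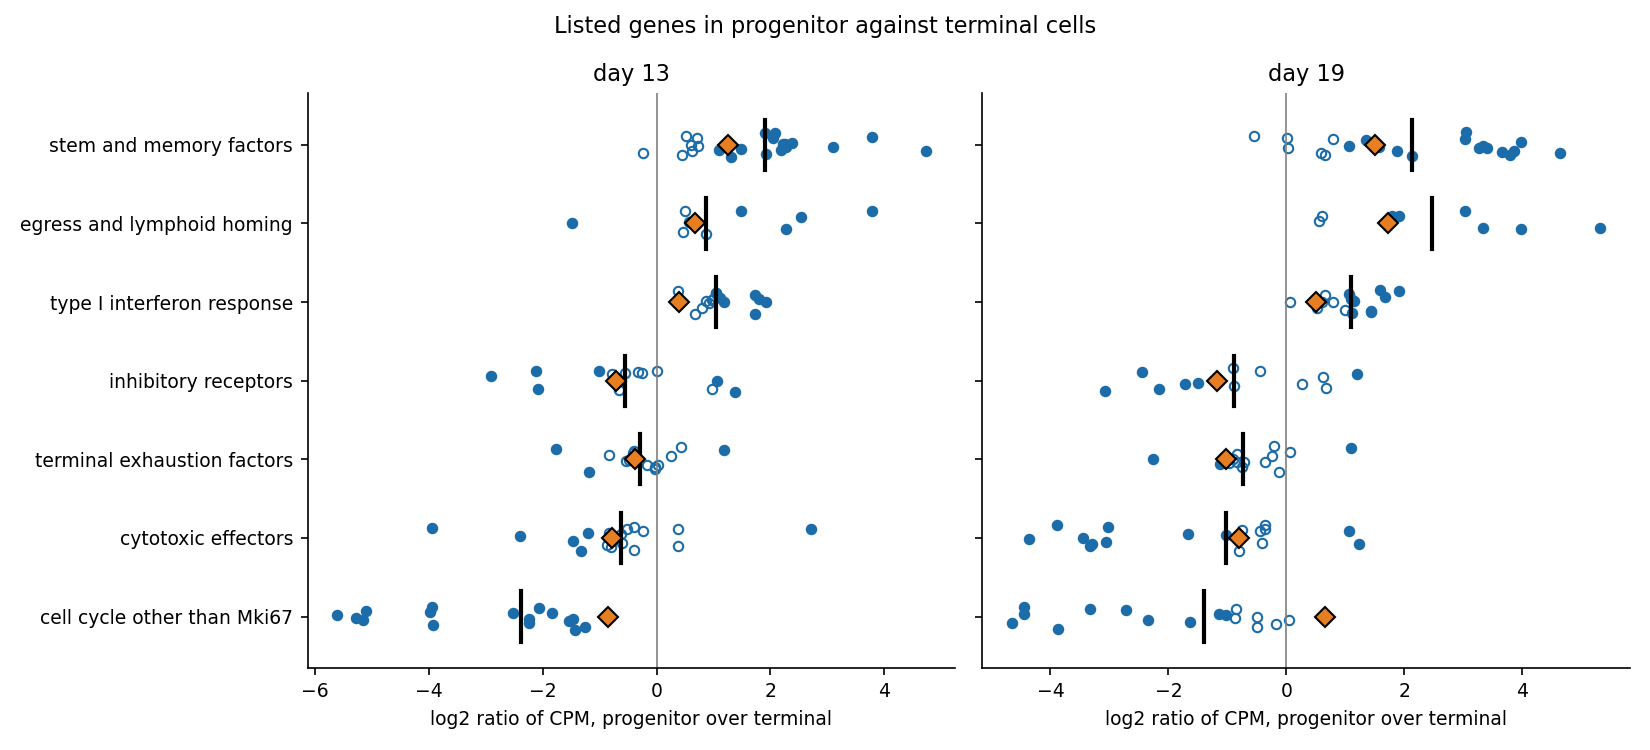
Log2 ratio of CPM in members over terminal cells for the genes of 7 lists on each day; filled points are called genes, open points genes not called, black bars list medians and orange diamonds the median against terminal cells under equal limits. The stem and memory median is 1.91 on day 13 and 2.13 on day 19, and the cell cycle diamond on day 19 lies above 0.

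By rank over both days, the genes with the highest ratios in members included Nsg2, Dapl1, Sh3bp5, S1pr1, Emb, Klf3, Foxp3, Fas and Klf2. Nsg2 stood at 35.1, 41.5, 48.7 and 101 CPM in day 13 members and at most 2.93 in any set of terminal cells, and at 80.5, 87.3, 34.7 and 52.2 CPM on day 19 against at most 1.80. Dapl1, known as a marker of stem-like and naive CD8 T cells, had log2 ratios of 4.73 (3.89 to 5.70) and 3.41 (2.81 to 4.02). Emb, a plasma membrane glycoprotein, was at 515 against 97.6 and 403 against 50.1 CPM. Foxp3, the regulatory T cell factor, came from 12 members on day 13 and 3 on day 19, and 13 of its 22 UMIs on day 19 were in 1 barcode. The lowest ratios belonged to Knl1, Hmmr, Kif11, Aspm, Nusap1, Cenpf, Hist1h2ap, Hist1h1b, Ccna2 and Plk1, which act in mitosis or encode replication-linked histones. They bear on the Mki67 limit of the gate.

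Under equal limits, 47 genes were called higher on both days and 117 lower. The genes named next were chosen after their values were seen. The highest included Nsg2, Dapl1, S1pr1, Slamf6, Lef1, Emb, Klf2, Kbtbd11 and Klf3. The lowest were Ifitm1, Adam8, Spp1, Tmem273, Cxcl2, Cd244a, Rgs16, C1qtnf6, Ms4a4a and Ccl4. Ifitm1, an interferon-induced membrane protein, was at 47.0 CPM in day 13 members (0 to 89.7 over sets) and 554 in terminal cells under equal limits (512 to 619). On day 19 it was at 76.0 (9.49 to 169) against 2150 (717 to 3005) CPM. No set of members reached the lowest set of terminal cells, and the log2 ratios of -3.56 (-3.84 to -3.30) and -4.82 (-5.20 to -4.47) became -7.68 and -7.19 without barcodes holding other cells' markers. It thus ran against the type I interferon list. Rgs16, a regulator of G-protein signalling, was at 72.2 against 468 and 73.7 against 591 CPM. Spp1 and Cxcl2 are also macrophage genes. Without barcodes holding other cells' markers, Cxcl2 had at most 3 UMIs in each class on both days, so it had no ratio. Spp1 had log2 ratios of -3.39 and -5.06. Without such barcodes its ratio was -2.34 on day 13, and on day 19 it was not read in members, which gives a ratio of -1.51 or lower against a floor of 3 UMIs.

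Within the members, Gzmb, Klf2, Slamf6, Lef1 and Ifng were ordered by the number of Tcf7 UMIs on both days, and several other genes were not. For Slamf6, Lef1 and Ifng the intervals of neighbouring groups overlapped on both days, and for Gzmb and Klf2 1 pair of neighbours overlapped on day 19. On day 13, 121 members had 1 Tcf7 UMI, 71 had 2 and 146 had 3 or more, with median depths of 6590, 7398 and 8057.5 UMIs, so depth moved with the groups. Gzmb was at 1583 CPM (1502 to 1667) with 1 UMI, 1212 (1124 to 1305) with 2 and 620 (579 to 664) with 3 or more. In 286 cells just outside the gate, with neither Tcf7 nor Havcr2, it was at 3069.8 CPM (3000.1 to 3140.7). On day 19 the order was the same, at 484, 326 and 50.2 CPM in 43, 16 and 35 members, and at 1635 in the 138 cells just outside. Klf2 went the other way, at 477, 644 and 789.8 CPM on day 13 and 472, 713 and 747 on day 19, with 348 and 107 in the cells just outside. Slamf6 was at 93.7, 101 and 113 CPM on day 13, with overlapping intervals, and at 45.2, 114 and 177 on day 19, and at 44.6 and 7.57 in the cells just outside. Id3 was at 35.3, 24.04 and 48.4 CPM on day 13 and 42.7, 37.9 and 38.4 on day 19, and Ccr7 at 371, 239 and 522 and at 507, 364 and 469.7, with no such order. Prf1 and Tox had none either on day 13, at 34.2, 56.7 and 25.7 and at 80.5, 70.4 and 72.6 CPM. At the Havcr2 edge, 20 day 13 cells with Tcf7 and 1 Havcr2 UMI had 48.3 CPM of Slamf6 and 92.9 of Entpd1. The 76 day 13 cells kept out for an Mki67 UMI had 74.3 CPM of Slamf6 and 1262 of Gzmb.

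**Figure D3:**
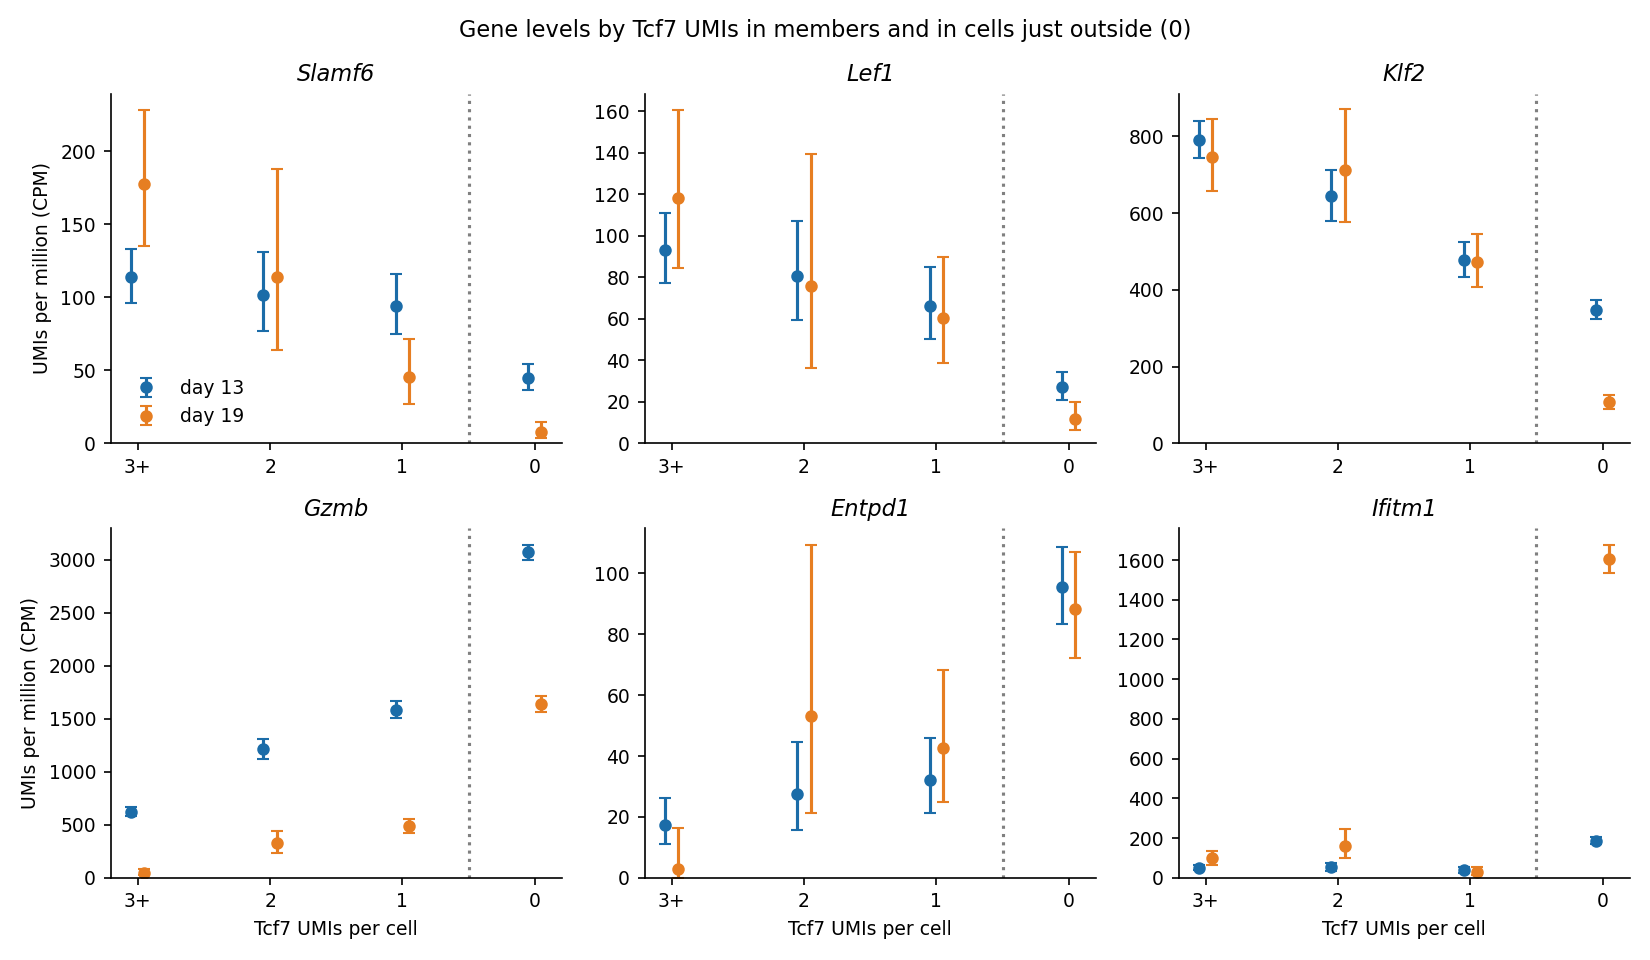
Levels in CPM of 6 genes by the number of Tcf7 UMIs per cell (3 or more, 2, 1) among members and in cells just outside the gate with neither Tcf7 nor Havcr2 (0, right of the dotted line), on day 13 (blue) and day 19 (orange), with exact 95% Poisson intervals. Gzmb is lowest at 3 or more Tcf7 UMIs, at 620 CPM on day 13 and 50.2 on day 19.

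Set against CD8 T cells of the same gate without Pdcd1 (913 on day 13 and 359 on day 19), members had lower levels of several naive and memory genes, among them Lef1 and Satb1, and higher levels of the inhibitory receptors Lag3, Tigit, Ctla4 and Entpd1. Of 8687 genes on day 13, 218 were called higher in members (2.51%) and 86 lower (0.99%), and of 6509 on day 19, 244 higher (3.75%) and 72 lower (1.11%). Among stem and memory genes 4 of 25 and 6 of 23 were called lower and none higher. Among inhibitory receptors 5 of 11 and 6 of 10 were called higher and none lower. Of the terminal exhaustion factors, 1 of 14 (Tox) was called higher on day 13, and on day 19 5 of 13 were called higher and 1 (Eomes) lower. The split of all calls depended on scaling: with ribosomal, mitochondrial and receptor segment genes left out of the total it was 138 higher and 142 lower on day 13 and 147 and 129 on day 19. Lef1 was at 81.8 against 164 CPM on day 13 and 85.2 against 184 on day 19. Id3 was at 39.1 against 64.8 CPM (log2 ratio -0.73) and 40.3 against 83.3 (-1.05), so it was lower in members than in these cells. Slamf6 was at 105 against 74.1 and 107 against 60.4 CPM, not called on either day. Lag3, at 201 against 56.7 and 181 against 24.6 CPM, had log2 ratios of 1.83 (1.64 to 2.02) and 2.88 (2.47 to 3.30). Tox was at 74.7 against 28.6 and 64.5 against 24.2 CPM, and Tigit and Ctla4 were called higher on both days. Gzmk was called higher on both days, at 1.94 and 2.62, and Gzmb on day 13 only, at 1.31 and -0.07. Members thus lay between the Pdcd1-negative cells and terminal cells for Lef1, Lag3 and Entpd1, as the plot of gene levels shows, and had the highest level of Slamf6.

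The largest ratios against the Pdcd1-negative cells on day 13 were for Nrn1, Nrgn, C2cd4b, Ccl2, Apod, Slc11a1, Spry1 and Ccl12. Nrn1, or neuritin, was at 46.6 against 2.55 CPM, a log2 ratio of 4.19 (3.46 to 5.02). Ccl2 and Ccl12 are also made by macrophages, and without barcodes holding other cells' markers their log2 ratios of 2.34 and 2.08 were -0.29 and 0.63. The smallest were for Ly6d, Hspb1, Chil3, Prss12, Prag1, Rttn, Klra9 and Klra3, and the Klra genes belong to the family that the gate limits in both classes. On day 19 the largest were for Ifitm1, Tbc1d4, Fscn1, Lag3, Car2, Fabp5, Plscr1 and Napsa, and the smallest for Cxcl2, Igfbp4, Zbtb21, Pkp4, Unc5cl, Ppp2r3d, Ier3 and Tmem108. Single sets carried some of these: without set 3 of day 13 C2cd4b was at -2.74 and Apod at -0.39, without set 2 Ccl2 was at -0.41, and without set 4 Ly6d was at 0.45. Fabp5, a lipid carrier shared with macrophages, went from 2.86 to -0.11 without such barcodes. Tbc1d4, which regulates glucose transporter traffic, had log2 ratios of 3.79 with and 4.02 without them. Ifitm1, at 4.10, was at -0.93 when cells were gated after thinning, and Napsa went from 2.75 to -0.30.

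Between days the members' stem and memory genes were mostly not called, and interferon and granzyme genes were called lower on day 19. Of 6654 genes, 114 were called higher on day 19 (1.71%) and 175 lower (2.63%). With ribosomal, mitochondrial and receptor segment genes left out of the total the split was 159 higher and 136 lower. With a minimum of 200 UMIs per gene it was 17 and 71, and with a minimum of 4 it was 357 and 229, so the balance of directions depended on these settings. None of the 23 stem and memory genes was called higher and only Xcl1 was called lower. Slamf6 (105 and 107 CPM), Id3 (39.1 and 40.3) and Lef1 (81.8 and 85.2) had log2 ratios of 0.03 (-0.32 to 0.37), 0.04 (-0.55 to 0.60) and 0.06 (-0.34 to 0.44). Tox and Lag3 were not called, at -0.21 and -0.16.

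Type I interferon genes were lower on day 19 in 8 of 15 cases, with a median log2 ratio of -1.07. Isg15, a ubiquitin-like protein of the response, stood at 796, 1675, 1497 and 1704 CPM on day 13 and 290, 412, 1016 and 479 on day 19. The log2 ratio was -1.49 (-1.63 to -1.36), and set 3 of day 19 overlapped with set 1 of day 13. Rsad2, or viperin, stood at 130, 349, 274 and 397 CPM on day 13 and 32.2, 45.2, 183 and 33.2 on day 19, a log2 ratio of -2.11 (-2.50 to -1.74), again with set 3 of day 19 inside the earlier range. Terminal cells showed the same direction, with 9 of 15 called lower and a median of -1.16, where 164 of 9296 genes were called higher in those cells (1.76%) and 239 lower (2.57%). The difference between the classes was not tested. The ratios of Isg15 and Rsad2 in members were -1.28 and -2.03 without barcodes holding other cells' markers.

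Granzymes were lower in day 19 members. Gzma stood at 55.1, 421, 403 and 287 CPM on day 13 and 0, 93.3, 49.6 and 99.7 on day 19, with set 1 of day 13 inside the later range. Its log2 ratio was -2.37 (-2.76 to -1.999), and that of Gzmb was -1.86 (-2.05 to -1.67), with sets 3 and 4 of day 19 above set 1 of day 13. In terminal cells the same ratios were 0.19 and 0.23 and not called, and the difference between the classes was not tested. Gzmk and Gzmm were called lower too, Gzmk also in terminal cells (-1.08 in members and -1.04 in terminal cells). Ifng was at 234 CPM on day 13 and 106 on day 19, a log2 ratio of -1.14 (-1.47 to -0.83), which was 0.25 when cells were gated after thinning and -0.80 without set 2 of day 13. Cd160 was higher on day 19, at 49.8 and 110 CPM. Cx3cr1, which microglia and macrophages also express, had a log2 ratio of 1.45 (1.02 to 1.88), and of 0.40 without barcodes holding other cells' markers.

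The highest ratios by day were for Crybb1, Ldhb, Uhrf1, Lat2, Il1rn, Trem2, Tgfbi and Ecm1, and the lowest for Ly6i, Ccl22, Gzma, Trim30c, Rsad2, Kmt2d, Gzmm and Ifit1bl1. Ldhb, a lactate dehydrogenase subunit, stood at 0, 7.79, 16.2 and 4.90 CPM on day 13 and 40.3, 51.2, 44.6 and 28.5 on day 19, without overlap. Uhrf1, which maintains DNA methylation at replication, was at 7.83 and 33.4 CPM, and Mcm3, Tyms and Stmn1 of the cell cycle list were also called higher (1.07, 1.18 and 1.10). Trem2, Tgfbi and Il1rn are macrophage genes and moved with the macrophage markers, whose part in these ratios was not tested. Of 54 Il1rn UMIs on day 19, 35 lay in 1 barcode, as did 19 of 33 Ecm1 UMIs. Lat2, at 1.97, was at 0.11 without barcodes holding other cells' markers.

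**Figure D4:**
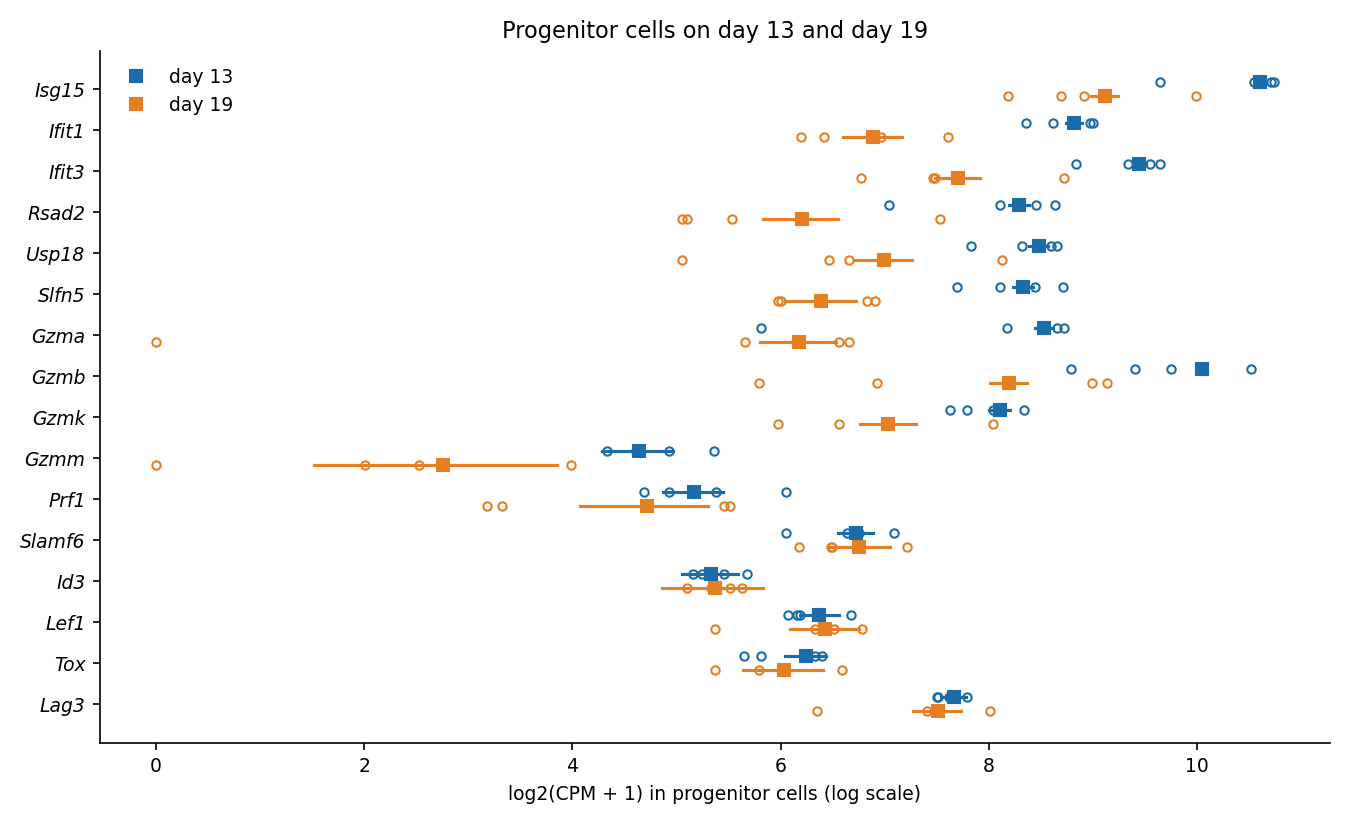
Levels of 16 genes in members on day 13 (blue) and day 19 (orange) on a log2(CPM + 1) axis; squares are all members of a day, lines exact 95% Poisson intervals and open circles the 4 contig sets. Interferon genes and granzymes lie lower on day 19, and Slamf6, Id3 and Lef1 lie at the same place on both days.

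Antibody tags added little at the surface. The CD8a tag had a median of 9 UMIs in day 13 CD8 T cells against 12 for the IgG1 isotype control, and 5 against 6 on day 19, so this tag did not rise above that control. The IgG2a and IgG2b controls had medians of 9 and 6 on day 13 and 5 and 3 on day 19. In CD4 T cells the CD8a tag had the same medians, 9 and 5. The CD4 tag had medians of 5 in CD4 and 3 in CD8 T cells on day 13, and 3 and 1 on day 19. Of 138 tags, 3 were called higher in members than in terminal cells on day 13 (2.17%) and none lower (0%). These were IgD, CD38 and CD326, with 92.4%, 70.4% and 44.1% of their UMIs in 1 barcode, and none was called without it. On day 19, 2 were called higher (1.45%) and 4 lower (2.9%), and 2 remained without the top barcode of each class, of which CD1d was lower (-1.002). Against the Pdcd1-negative cells 3 tags were called higher on day 13 (2.17%) and 1 lower (0.725%), and on day 19 1 higher (0.725%) and 1 lower (0.725%). Those called higher were IgD, CD38 and CD326 on day 13 and the class II tag IA/IE on day 19. The PD-1 tag (CD279) was at 118 against 125 and 120 against 122 per 10000 tag UMIs, and the TIM-3 tag (CD366) was not called without its top barcode.

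Expanded clonotypes were less frequent among members than among terminal cells. A clonotype was a set of CD8 T cells in 1 contig set with the same CDR3 nucleotides of both TRA and TRB, and was called expanded at 2 or more cells. V and J genes were not part of the match. Among members with 1 chain of each kind, 33.0% were in expanded clonotypes on day 13 (26.9 to 39.7, 73 of 221) and 23.2% on day 19 (13.9 to 34.9, 16 of 69). Among such terminal cells it was 76.8% (70.9 to 81.9, 185 of 241) and 82.9% (77.8 to 87.2, 218 of 263), and in the Pdcd1-negative cells 7.82% and 4.67%. Cells with 1 chain of each kind were 65.4% of members and 87.6% of terminal cells on day 13, and 73.4% and 59.1% on day 19. By set, members ranged from 13.3% to 38.8% on day 13 and from 17.6% to 35.7% on day 19, below every set of terminal cells. Terminal cells under equal limits had 78.2% and 80.2%. With each set drawn down to 140 CD8 T cells the shares were 17.1% and 18.1% for members and 59.7% and 74.6% for terminal cells.

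**Figure D5:**
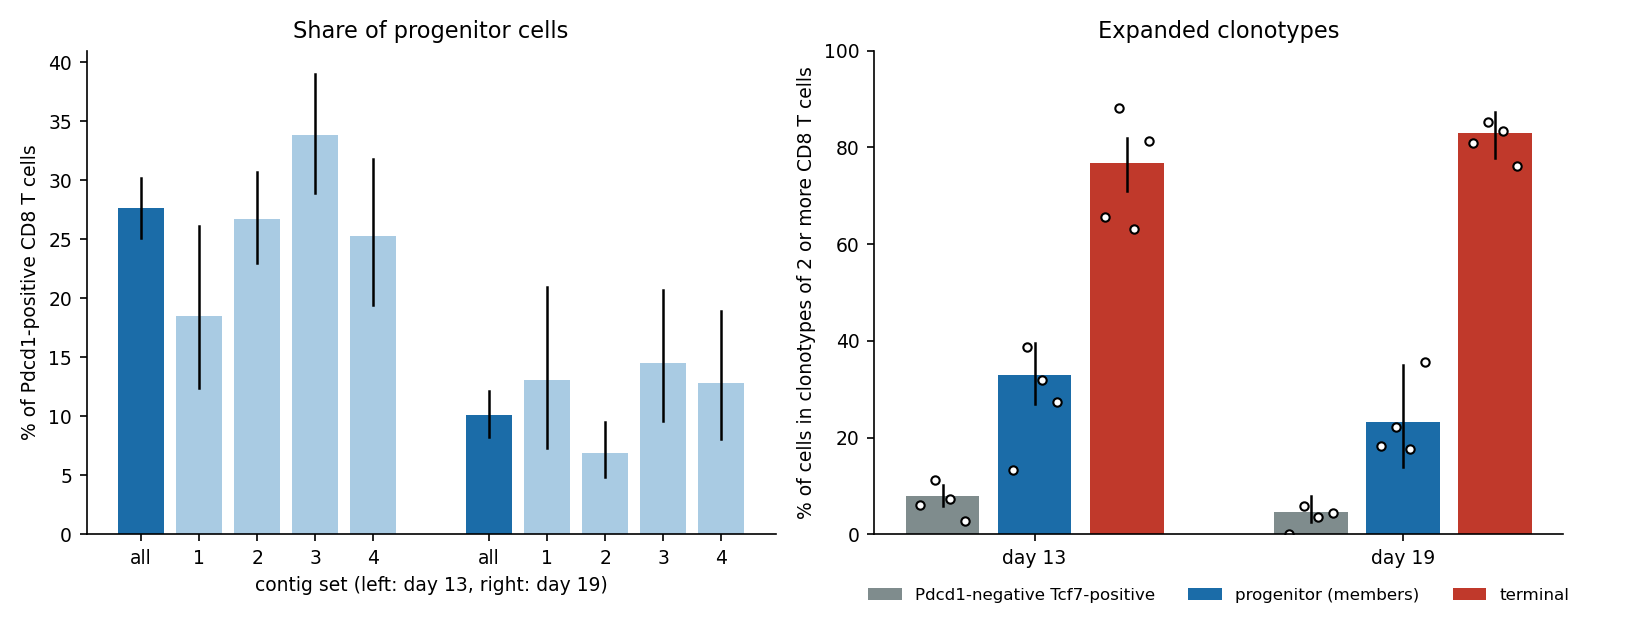
Left, members as a percentage of Pdcd1-positive CD8 T cells over all sets (dark) and in each contig set (light) on each day, with exact 95% binomial intervals. Right, percentage of cells in clonotypes of 2 or more CD8 T cells in the 3 classes, with points for contig sets; members lie at 33.0% and 23.2%, between the other 2 classes.

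Most member clonotypes held a single member. Of 199 on day 13, 182 did, and of 65 on day 19, 61 did. Some clonotypes joined both states: 19 on day 13, which is 9.55% of progenitor and 15.4% of terminal clonotypes, and 5 on day 19, which is 7.69% and 5.43%. Member clonotypes also held Pdcd1-negative cells of the gate, 15 on day 13 (7.54%) and 2 on day 19 (3.08%). Of the member receptor pairs, 8 of 198 on day 13 and 4 of 64 on day 19 recurred in more than 1 contig set, and 1 day 19 pair was also read on day 13. The largest of the 24 shared clonotypes are shown because the same pair of CDR3 sequences was read from members and terminal cells. All 4 came from day 13 and held 24, 21, 19 and 12 CD8 T cells, of which 2, 4, 2 and 2 were members and 10, 1, 5 and 1 terminal. The CDR3 sequences below run 5′ to 3′ from the deposited contig annotations. Capitals mark the part inside the outer 9 bases on each side, a fixed trim that was not mapped to the germline segments.
Clonotype 1 TRA (TRAV16N, TRAJ18): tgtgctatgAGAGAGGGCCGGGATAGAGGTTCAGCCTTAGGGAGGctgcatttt
Clonotype 1 TRB (TRBV5, TRBJ1-1): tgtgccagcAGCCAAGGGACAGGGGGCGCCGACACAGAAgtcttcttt
Clonotype 2 TRA (TRAV6-2, TRAJ26): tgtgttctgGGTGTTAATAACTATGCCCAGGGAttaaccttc
Clonotype 2 TRB (TRBV29, TRBJ2-3): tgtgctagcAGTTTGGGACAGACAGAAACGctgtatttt
Clonotype 3 TRA (TRAV4-4-DV10, TRAJ49): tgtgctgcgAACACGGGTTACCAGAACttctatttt
Clonotype 3 TRB (TRBV29, TRBJ2-7): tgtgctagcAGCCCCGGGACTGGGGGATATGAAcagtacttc
Clonotype 4 TRA (TRAV12-1, TRAJ5): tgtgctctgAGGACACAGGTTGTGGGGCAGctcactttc
Clonotype 4 TRB (TRBV12-1, TRBJ2-1): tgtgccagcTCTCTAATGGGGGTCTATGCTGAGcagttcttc

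Within the day 13 shared clonotypes, UMIs were summed over 30 members and over 43 terminal cells. The 19 clonotypes carry unequal weight in the 2 sums, so these are not ratios within a clonotype. Slamf6 was at 103 against 16.1 CPM, a log2 ratio of 2.67 (1.51 to 3.97), and Lef1 at 75.8 against 14.3 CPM, 2.41 (1.12 to 3.83). None of the 4 largest clonotypes had the Slamf6 direction of the sums. In clonotype 2 its UMIs were 4 of 28566 in members and 3 of 8656 in the 1 terminal cell, in clonotype 1 they were 0 of 14015 and 1 of 82807, and clonotypes 3 and 4 had none in either class. Ifitm1 was at 13.4 against 580 CPM and Tnfrsf9 at 66.9 against 244. Gzmb was at 1974 against 2617 CPM, a log2 ratio of -0.41 (-0.56 to -0.25), but 233 of the 443 Gzmb UMIs of members lay in the 2 members of clonotype 4, so the size of this ratio rests on 2 cells. Lag3 was at 374 against 394 CPM (-0.07). Il7r was at 152 against 55.3 CPM, a log2 ratio of 1.45 (0.71 to 2.205), and Klf2 at 308 against 119.5, 1.36 (0.86 to 1.87). Ccr7 did not follow, and was at 80.2 against 85.6 CPM (-0.09) and Id3 at 8.91 against 25.0 CPM, from 2 UMIs in members and 14 in terminal cells, a log2 ratio of -1.49 (-4.67 to 0.64). On day 19 only 5 members were in shared clonotypes.

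A recurrent receptor of terminal cells was not read in the members with 1 chain of each kind. Only cells with 1 TRA and 1 TRB chain were counted. These were 221 of 338 members and 241 of 275 terminal cells on day 13, and 69 of 94 and 263 of 445 on day 19. On day 19, 135 terminal cells and 5 members were left out with 2 TRA chains and 1 TRB chain. TRAV7D-2 with TRBV16 made up 14.5% of the counted terminal cells on day 13 (10.3 to 19.6, 35 of 241) and 21.7% on day 19 (16.8 to 27.1, 57 of 263), from 3 and 2 contig sets. Among members it was 0 of 221, which allows a share of up to 1.36%, and 0 of 69, which allows up to 4.35%, where the limit is 3 cells of the total. The exact 95% intervals reach 1.66% and 5.21%. In the Pdcd1-negative cells it was 0 of 627 on day 13. TRBV29 was the most frequent V gene of day 13 members (15.8%, 35 of 221), and TRBV19 with 11.6% (8 of 69) was level with TRAV8N-2 on day 19.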

How the data were processed

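The deposited matrices hold unfiltered UMI counts of genes, antibody tags and multiplexing tags for each cell barcode and, per the submitters' processing notes, were made with bcl2fastq 2.20, Cell Ranger 4.0.0, STAR 2.7.5c, Seurat and R 4.1.2 on mm10. The authors deposited raw counts with no normalization visible in the values, and receptor contigs after Cell Ranger's filter. Day 13 had 144565182 and day 19 81224453 gene UMIs; 8359 and 4295 contig barcodes stand beside the 10000 cells per day that the design text targeted. The members' rule, terminal cells and gene lists were chosen with earlier results of these data known. Counts were summed per class, scaled to CPM, and compared as log2 ratios with exact conditional Poisson intervals (Python 3.11.15, scipy 1.17.1), without a test, since each day is 1 capture. A ratio against 0 UMIs used a floor of 3. Genes needed 50 UMIs over both classes. Thinning drew 5000 UMIs per cell with a fixed seed. Named genes were the 10 highest and 10 lowest called on both days by the smaller ratio in size, 8 in each direction for the other comparisons, and the listed genes. The scripts were tested on simulated data. Clonotypes needed 1 TRA and 1 TRB chain. Alternatives changed the depth, UMI minimum, Tcf7 minimum, scaling, other cells' markers, terminal limits and contig sets. The alternatives that left out barcodes with 2 or more TRB chains or the top barcode of a tag, and that counted barcodes outside the contig sets, were added later, after seeing the data. Single results on 1 named gene and its surface tag are not reported here, although the gene stays in the counts and medians.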

Additional observations from a re-analysis of the deposited data

Results flagged for a closer look

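Nrn1, which encodes neuritin, had opposite ratios on the 2 days. In members it was at 46.6 CPM on day 13 and 12.7 on day 19, and in terminal cells at 5.65 and 39.2. The log2 ratio of members over terminal cells was 3.04 on day 13 and -1.63 on day 19, and the ratio of day 19 over day 13 was -1.88 in members and 2.80 in terminal cells. The difference between the ratios was not tested. By contig set, members ranged from 29.4 to 67.8 CPM on day 13 and from 0 to 24.8 on day 19, and terminal cells from 0.77 to 20.5 and from 17.2 to 63.6.

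Il1rn, the interleukin 1 receptor antagonist, had a log2 ratio of members over terminal cells of -2.07 on day 13 and 1.07 on day 19, and of day 19 over day 13 of 1.93 in members and -1.22 in terminal cells. Ecm1, an extracellular matrix protein, had day ratios of 1.61 in members and -1.06 in terminal cells. The ratio in members was -0.34 without barcodes of 2 or more TRB chains and 0.67 without set 4 of day 19. For both genes 1 barcode held most of the day 19 UMIs of members (35 of 54 and 19 of 33), and the differences were not tested. The CD38 tag had a log2 ratio of members over terminal cells of 1.45 on day 13 and -2.64 on day 19, with 70.4% of the members' UMIs on day 13 and 82.4% of the terminal cells' UMIs on day 19 in 1 barcode each, also untested.

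Barcodes that passed the members' gate and the depth filters but were in none of the contig sets numbered 191 on day 13 and 20 on day 19. In 97 and 5 of them the 2 top multiplexing tags lay within 2-fold of each other, so they may not be single cells. All 191 and 20 together made up 25.0% (22.0 to 28.3) and 8.44% (5.23 to 12.7) of the Pdcd1-positive CD8 barcodes outside the contig sets. Slamf6 in them was at 75.6 and 58.6 CPM, and at least 2 UMIs of other cells' markers were found in 47.6% and 65%. The median depth was 10946 and 8554 UMIs.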

How the results depend on the processing

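No paired analysis was possible between samples because each day is 1 capture, and its contig sets are not shown by the labels to be separate animals or to match across days. Within a day the classes were set side by side in each contig set, as values with no test. Depth limits calls to genes with 50 or more UMIs, and day 19 rests on 94 members. Over 29 results that answer a comparison, 223 alternative values stayed near the reported one, 58 moved and 1 turned sign. Of single genes and tags, 3931 values counted as the same: a called gene kept its call, and an uncalled gene stayed within its reported interval. Of the rest, 504 lost and 121 gained the call, 224 uncalled values left the interval and 20 called values turned sign. A sign change of an uncalled gene was not counted as a turn. The cause was not tested unless the construction of an alternative shows it (fewer cells or genes).

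Counts of called genes against terminal cells on day 13 were 804 after gating on thinned cells, 561 under equal limits, 560 at 200 UMIs and 1854 at 4 UMIs. On day 19 they were 415 under equal limits and 429 at 200 UMIs. Between days they were 88 (17 higher) and 586 (357 higher) at 200 and 4 UMIs. Against Pdcd1-negative cells they were 168, 97 and 673 on day 13 and 203, 64 and 823 on day 19 with a depth minimum of 8000 and at 200 and 4 UMIs. With ribosomal, mitochondrial and receptor segment genes left out of the total, the calls against terminal cells were 518 higher and 711 lower on day 13 and 529 and 535 on day 19.

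List medians moved as follows. At a depth minimum of 8000 the inhibitory median was -0.33 on day 13. Without barcodes holding other cells' markers the day 13 medians were 2.74 for egress, -0.75 for inhibitory receptors and -0.14 for terminal factors, and on day 19 3.21 for egress, -1.41 for inhibitory receptors and 1.88 for interferon genes. After thinning they were 1.60 for stem genes and -0.72 for cytotoxic genes on day 13, and 1.48 for stem, 1.87 for egress, 1.40 for interferon and -0.72 for cell cycle genes on day 19. Under equal limits they were 1.25 for stem, -0.78 for cytotoxic, 0.40 for interferon and -0.86 for cell cycle genes on day 13. On day 19 they were 1.502 for stem, 1.72 for egress, -1.18 for inhibitory, 0.50 for interferon and 0.65 for cell cycle genes. Leaving out a contig set gave a day 13 stem median between 1.66 and 2.10.

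The members' share was 18.5% on day 13 and 6.23% on day 19 at a minimum of 8000 UMIs, 17.7% and 5.46% at 2 Tcf7 UMIs, and 30.4% on day 13 without barcodes holding other cells' markers. Leaving out a contig set gave 25.1% to 28.7% and 9.06% to 13.5%. Tags called against terminal cells were 0 on day 13 at 8000 UMIs or without the top barcodes, and 3 under equal limits and 2 without the top barcodes on day 19. Leaving out a set gave 0 to 4 and 2 to 7. Expanded members on day 13 were 25.0% at 8000 UMIs, 21.3% with 3 cells per clonotype and 17.1% rarefied. Expanded terminal cells were 65.6% and 59.7% on day 13 and 71.9% and 74.6% on day 19 under the last 2 settings, and 70.5% to 82.1% on day 13 without a set.

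Ratios of called genes that turned sign against terminal cells were Foxp3 on day 13 after thinning (-0.012) and, under equal limits, Ccna2 on day 13 (0.28) and Birc5 (0.98), Ccna2 (1.98), Hist1h1b (0.17) and Rrm2 (3.15) on day 19. Between days they were Ifng (0.25) and Il12rb1 (0.003) after thinning and Ecm1 (-0.34) without barcodes of 2 or more TRB chains. Against Pdcd1-negative cells on day 13 they were Ccl2 without other cells' markers (-0.29), Apod (-0.73) and Ccl2 (-1.14) after thinning, and, over the values without a set, Ccl2 (-0.41 to 3.08), Apod (-0.39 to 5.36), C2cd4b (-2.74 to 4.74) and Ly6d (-6.36 to 0.45). On day 19 they were Fabp5 (-0.11) and Rbpj (-0.028) without other cells' markers and Ifitm1 (-0.93) and Napsa (-0.30) after thinning.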
